A study of Homo sapiens with 61 samples.

Results

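The regions described here carried H3K4me3 peaks in wild-type (WT) U2OS cells 3 h after UV-C light and were not robustly marked in any other group. They were chosen by H3K4me3 peak calls alone. All peaks of 18 libraries were merged where they overlapped or touched, a region was called robust in a group when at least 2 of its 3 libraries held a peak there, and regions robust in WT cells at 3 h and in none of the other 5 groups were kept. There were 11538 such regions among 282418 merged regions (4.09%), or 12.6% of the 91785 regions robust in WT cells at 3 h. Because the presence of H3K4me3 peaks chose them, every H3K4me3 value below is a description and carries no test.

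U2OS is a human osteosarcoma line. The 6 groups were WT cells 3 h after 20 J/m2 of UV-C, WT cells 1 h after the same dose, unirradiated WT cells, and cells lacking ASH1L (ASH1L-/-) that were unirradiated or collected at 1 h and 3 h. The ASH1L-/- cells were made in the same line with CRISPR/Cas9, with homozygous deletions inside the gene, and grown from isolated colonies, so the genotype cannot be told apart from the clone used. Each group had 3 H3K4me3 libraries, and for XPC each had 3 libraries except unirradiated WT cells, which had 4.

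Trimethylation of lysine 4 of histone H3 is the usual mark of active and poised promoters, and weaker deposits also occur at enhancers and within genes. ASH1L is a methyltransferase of histone H3. UV-C joins neighbouring pyrimidines in DNA, and XPC is the factor that finds such lesions outside transcribed strands and starts global-genome nucleotide excision repair. The comparison asks where the mark was found late after irradiation in cells with ASH1L only, and whether XPC peaks lay at the same places.

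As a check of the line, 10 of 12 mesenchymal and osteoblast markers had their start site in a region robust in unirradiated WT cells, against 1 of 4 epithelial, 0 of 5 blood, 0 of 3 liver and 2 of 3 neuronal markers. The ASH1L start site lay under a peak in 18 of 18 H3K4me3 libraries, which says nothing of the deletions, since these lie further inside the gene. Library depth was recovered as the background read level at a summit and ran between 2.57 and 4.40 reads over the 18 libraries. The 3 WT libraries at 3 h stood at 4.28, 2.57 and 4.34 reads, so that replicate 2 was the shallowest of the series. Their lists held 137372, 119986 and 141258 peaks, while the other 15 lists held between 72984 and 142688.

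Regions among the longest of those carried in all 3 WT libraries at 3 h and in none of the other 15 are shown first, because they are the clearest examples. Each line gives 300 bases around the strongest summit on the plus strand of hg38, 5′ to 3′, with CpG dinucleotides in capitals. The windows were chr10:43084984-43085283 in an intron of RET, chr19:391990-392289 between genes near THEG, and chr14:68670960-68671259 in an intron of RAD51B. They held 5, 19 and 3 CpG, and 60.7%, 62.0% and 54.7% G and C, against medians of 3 CpG and 51.3% over the 11538 regions.
RET intron: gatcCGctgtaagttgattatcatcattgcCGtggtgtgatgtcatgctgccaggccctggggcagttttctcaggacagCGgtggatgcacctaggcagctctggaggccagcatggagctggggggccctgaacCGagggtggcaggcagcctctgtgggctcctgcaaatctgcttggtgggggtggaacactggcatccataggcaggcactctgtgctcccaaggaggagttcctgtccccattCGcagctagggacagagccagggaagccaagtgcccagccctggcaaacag
THEG neighbourhood: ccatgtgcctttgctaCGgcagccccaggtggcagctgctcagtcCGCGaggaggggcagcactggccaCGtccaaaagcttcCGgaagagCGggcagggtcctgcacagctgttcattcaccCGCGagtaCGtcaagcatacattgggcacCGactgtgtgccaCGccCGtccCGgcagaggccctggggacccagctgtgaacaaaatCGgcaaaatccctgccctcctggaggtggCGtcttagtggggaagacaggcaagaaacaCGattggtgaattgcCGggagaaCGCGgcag
RAD51B intron: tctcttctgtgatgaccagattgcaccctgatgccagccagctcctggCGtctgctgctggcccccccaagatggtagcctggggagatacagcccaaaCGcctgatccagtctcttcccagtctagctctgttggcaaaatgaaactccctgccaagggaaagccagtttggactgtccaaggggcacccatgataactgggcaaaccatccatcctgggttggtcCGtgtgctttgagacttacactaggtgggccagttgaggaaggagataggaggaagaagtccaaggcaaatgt

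Most of the regions were small and weakly enriched. The median region was 589 bp wide, and the peaks of the 3 WT libraries at 3 h covered a median of 249 bp per region on average. The highest fold enrichment over the local control had a median of 3.08 and a maximum of 6.37. Sets robust in 1 other group only had median widths of 518 to 578 bp. Their highest fold enrichment in their own group had medians of 2.96 to 3.04. All merged regions had a median width of 434 bp. Regions robust in all 6 groups were wider, with a median width of 2347 bp and a median covered length of 1562 bp at 3 h in WT. Replicates 1, 2 and 3 of WT cells at 3 h held peaks in 9523, 6686 and 9265 of the regions, with a median of 16, 11 and 16 reads at the summit. A median local background of 4.50, 2.63 and 4.55 reads stood against those reads. Of these 3 libraries, replicate 2 had the lowest background and held the fewest of the regions.

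Agreement among the WT libraries at 3 h was partial. Only 2398 of the regions (20.8%) had a peak in all 3 libraries, whereas 4852 rested on replicates 1 and 3, 2273 on replicates 1 and 2, and 2015 on replicates 2 and 3. When regions were chosen without one WT library at 3 h, a peak in the library left out was found at 56.3% (replicate 1), 34.1% (replicate 2) and 53.5% (replicate 3) of them. The same shares in the other groups ranged between 15.7% and 55.1%. In WT cells at 3 h these were 2600 of 4617, 2510 of 7363 and 2622 of 4897 regions. Of all 282418 merged regions, replicates 1, 2 and 3 held a peak in 107898, 86130 and 112383, regions of their own included.

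**Figure D1:**
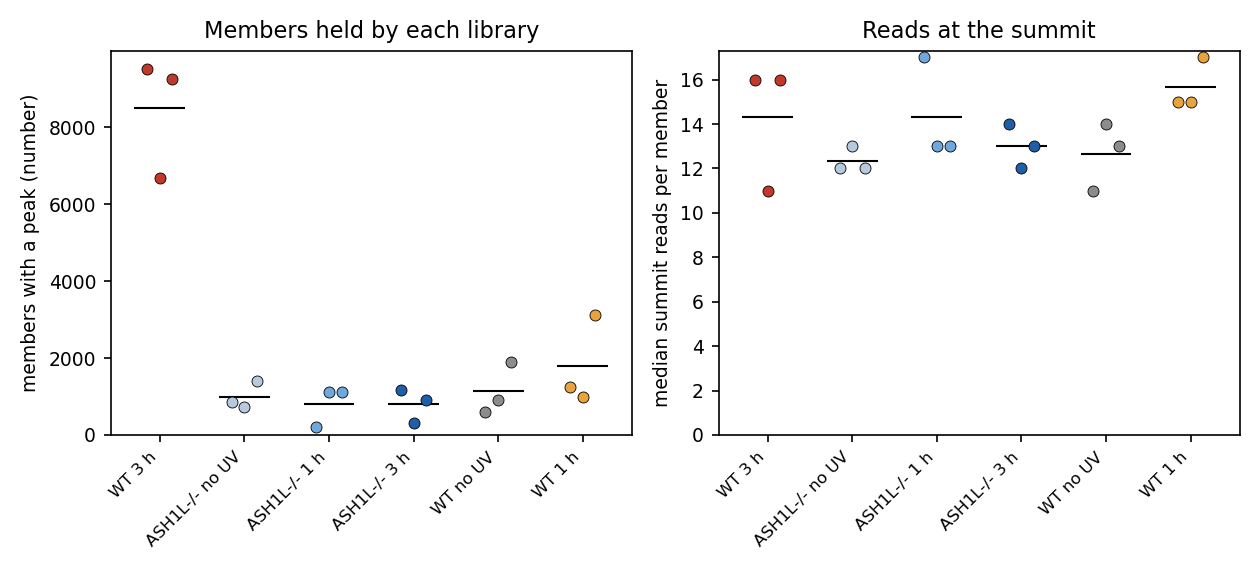
The left plot gives the number of the 11538 regions (members) that held a peak in each library and the right plot the median number of reads at the summit over the members with a peak in that library (points, libraries; lines, means of 3). The WT libraries at 3 h held 6686 to 9523 of the regions by choice, while the other libraries held 218 to 3122.

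Outside WT cells at 3 h the mark was often present in a single library. By the rule, each other group could hold a peak in at most 1 of its 3 libraries. Of the 11538 regions, 2976 (25.8%) had no peak in any of the other 15 libraries, 3615 had 1, 2747 had 2, 1453 had 3, 619 had 4 and 128 had 5. Sets robust in 1 other group only also had many regions without a peak elsewhere. These were 885 of 3251 for unirradiated WT cells and 1097 of 5601 for WT cells at 1 h. For ASH1L-/- cells they were 1559 of 4985 without UV, 695 of 3584 at 1 h and 1684 of 6224 at 3 h. Among the 11538 regions, a peak in 1 of 3 libraries was found at 5345 (46.3%) in WT cells at 1 h and at 3419 (29.6%) in unirradiated WT cells. In ASH1L-/- cells such a lone peak was found at 2975 regions (25.8%) without UV, 2447 (21.2%) at 1 h and 2398 (20.8%) at 3 h, and 5996 regions (52.0%) had no peak in any ASH1L-/- library. Among WT cells at 1 h replicate 3, the deepest library, held 3122 of the regions, against 1239 and 984 for replicates 1 and 2.

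The number of regions robust in 1 group only was 11538 for WT cells at 3 h, 4985 for unirradiated ASH1L-/- cells, 3584 and 6224 for ASH1L-/- cells at 1 h and 3 h, 3251 for unirradiated WT cells and 5601 for WT cells at 1 h. With a peak in 3 of 3 libraries of the group and in none of the other 15, the numbers were 447, 128, 47, 141, 29 and 146 in the same order. The size of the lead of WT cells at 3 h differed between rules. When every library was held to its 72984 strongest peaks, 4477 regions were robust in WT cells at 3 h only, against 4041 in ASH1L-/- cells at 3 h and 3865 in WT cells at 1 h. When each peak was instead retested with its reads scaled down to the lowest depth of the 18 libraries, an alternative chosen after the data were seen, the number was 11317 for WT cells at 3 h, against 6136 for ASH1L-/- cells at 3 h and 5353 for WT cells at 1 h. The retest scaled summit reads and background without redrawing reads, and dropped only 0% to 8.14% of the peaks of a library. It could therefore move these numbers little and cannot decide the part of depth. With peaks of at least 5-fold enrichment the numbers were 2955, 591 and 1113.

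**Figure D2:**
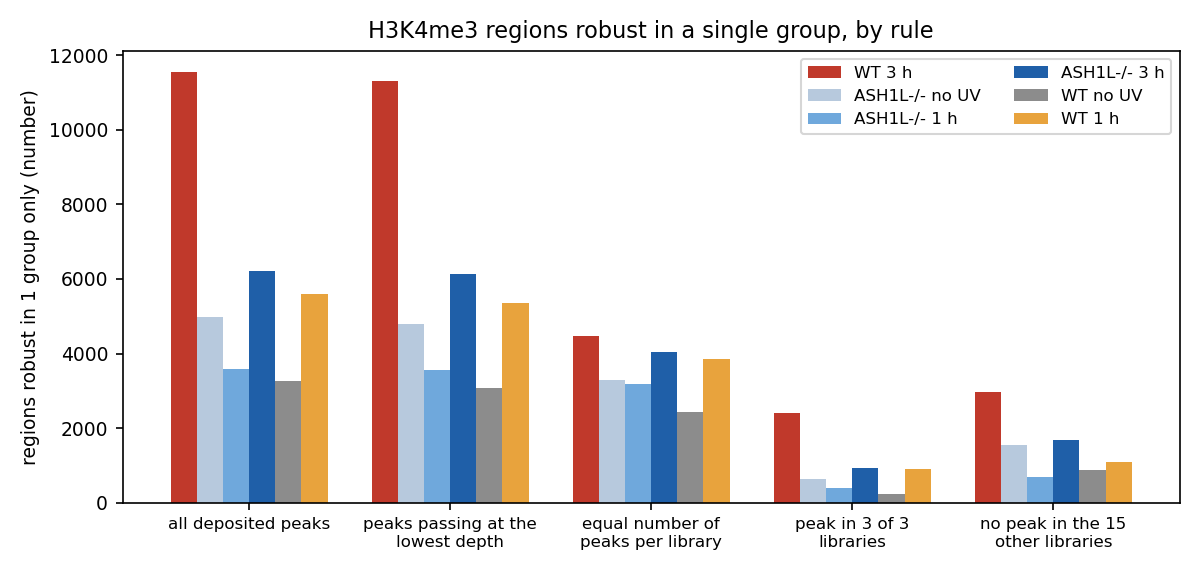
Bars give the number of H3K4me3 regions robust in a single group under 5 rules, with WT cells at 3 h in red. Their number was 11538 with all deposited peaks and 4477 with an equal number of peaks per library, where ASH1L-/- cells at 3 h had 4041.

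The longest regions just outside the rule covered more than the longest just inside. Inside, the longest region with peaks in exactly 2 WT libraries at 3 h and none elsewhere lay at the TNF promoter, with 2121 and 1121 bp covered in replicates 1 and 2 and no peak in replicate 3. The next lay in introns of SDK2, an adhesion protein of the retina (966 and 987 bp in replicates 1 and 3), and of ADAMTS2 (1069 and 754 bp). The longest just outside had peaks in 3 of 3 WT libraries at 3 h and in exactly 2 of another group. It covered 3236, 1735 and 3427 bp on chromosome 10, 42978925 to 42982351, and the next covered 3411, 1920 and 2428 bp on chromosome 10, 43063809 to 43067219, both upstream of RET and both with 2 of 3 WT libraries at 1 h. A further 22286 regions had a peak in 1 WT library at 3 h and none elsewhere, and 5808 were robust in WT cells at both 3 h and 1 h but in no other group.

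The RET locus held the longest of the regions absent elsewhere. RET codes for the receptor tyrosine kinase of the GDNF family of ligands. In an intron a region on chromosome 10, 43082744 to 43086407, was covered over 2092, 1110 and 3257 bp in the 3 WT libraries at 3 h, with a fold enrichment of 3.07, 3.29 and 3.33 and 21, 14 and 22 reads at the summit. A neighbour on chromosome 10, 43081355 to 43082692, was covered over 898, 737 and 1093 bp, and another on chromosome 10, 43074643 to 43076073, lay 1.00 kb before the start site, with 1206, 756 and 381 bp. None of these 3 regions had a peak in any of the other 15 libraries.

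Within 100 kb on either side of the RET start site there were 50 merged regions. Of these, 30 were robust in WT cells at 3 h, against 9 in ASH1L-/- cells at 3 h, 23 in WT cells at 1 h and 14 in unirradiated WT cells, and 7 were robust in WT cells at 3 h only. Peaks covered 77.1, 55.8 and 78.0 kb of that window in WT cells at 3 h, against 14.8, 11.1 and 10.8 kb in ASH1L-/- cells at 3 h. In unirradiated cells the cover was 19.9, 32.5 and 21.3 kb for ASH1L-/- and 19.8, 15.7 and 34.6 kb for WT, and in WT cells at 1 h it was 46.1, 31.6 and 44.2 kb. In the 20 kb before the start site WT cells at 3 h had 14.7, 9.63 and 13 kb under peaks, against 4.86, 3.43 and 3.75 kb in WT cells at 1 h and at most 2.52 kb in any other library. The WT libraries at 3 h lay above all others in these lengths, which follows in part from choosing the locus by its H3K4me3 peaks in those libraries. The start site itself lay in a region robust in all 6 groups, and the window was chosen after its regions were seen.

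**Figure D3:**
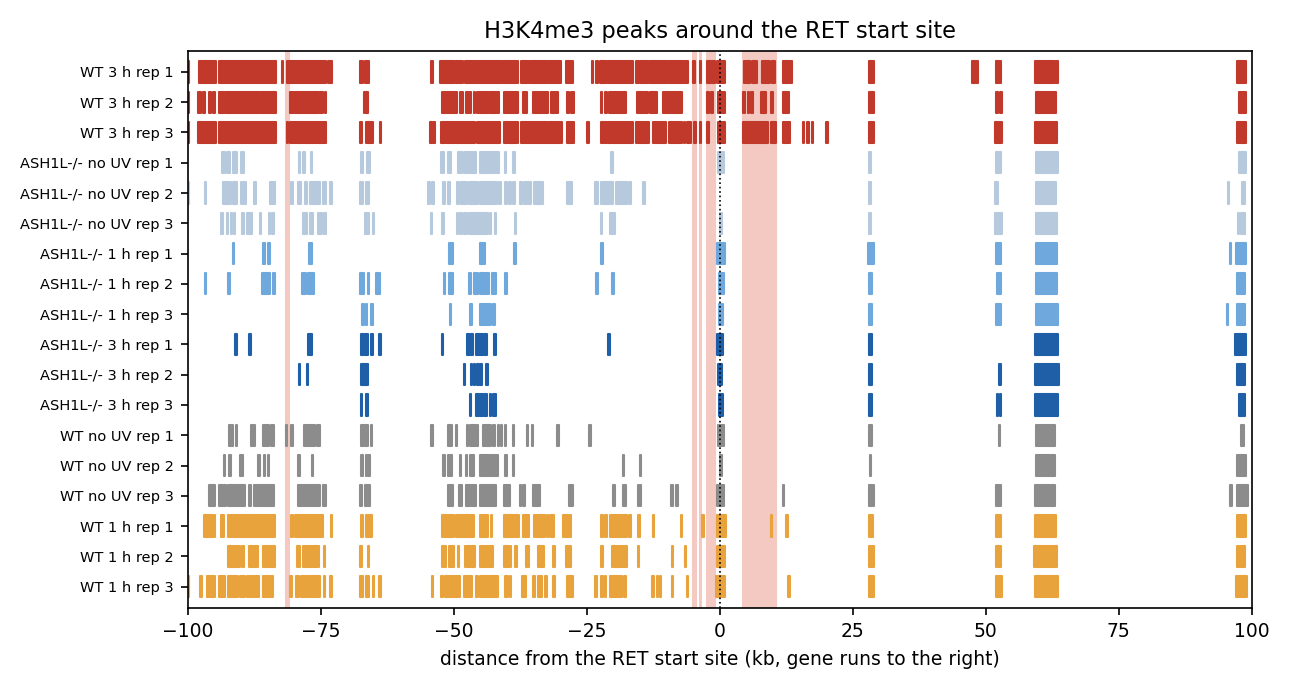
Bars are H3K4me3 peaks by distance from the RET start site in kb, 1 row per library with WT cells at 3 h on top, and shaded columns mark the 7 regions robust in WT cells at 3 h only. Peaks at 3 h in WT covered 14.7, 9.63 and 13 kb of the 20 kb before the start site, against at most 0.516 kb in ASH1L-/- cells at 3 h, while 9 regions of the window were robust in all 6 groups.

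Other long regions absent from the 15 other libraries lay mostly away from start sites. One near THEG (chromosome 19, 391224 to 393667) was covered over 2117, 1017 and 1558 bp, with a fold enrichment of 4.36, 3.58 and 4.31. An intron of RAD51B, a gene of homologous recombination, held one with 1174, 863 and 1051 bp (chromosome 14, 68669922 to 68671681). Introns of ZNF536, a zinc finger gene of the nervous system (1314, 562 and 806 bp), and of MCF2L, a guanine nucleotide exchange factor (1022, 1230 and 360 bp), were also among the 10 longest. By fold enrichment the lowest of the 3 libraries was highest in an intron of SEMA7A, a membrane-anchored semaphorin, with 3.79, 4.41 and 4.04. Another of the 10 strongest was a region 0.870 kb from the start site of CD247, the zeta chain of the T-cell receptor, with 3.41, 3.92 and 3.56. All 10 strongest had between 11 and 24 reads at the summit in each WT library at 3 h.

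Promoters were seldom among the regions. Within 2 kb of a protein-coding start site lay 194 of them (1.68%), against 5.70% of all merged regions and 30.9% of regions robust in all 6 groups. Sets robust in 1 other group only held few promoters too, from 0.646% for unirradiated WT cells to 3.16% for WT cells at 1 h. Regions found in a single library alone had 1.17%. A low share of promoters was thus common to such sets and did not set the regions apart. A further 4331 (37.5%) lay in gene bodies and 7013 (60.8%) between genes, against 37.7% and 56.6% of all merged regions. Of those in gene bodies 93.4% had the summit in an intron, 4.29% in another exon part and 2.31% in a UTR. The median distance to the nearest protein-coding start site was 99.4 kb. The nearest region robust in all 6 groups was 15.9 kb away in the median, close to the 16.3 kb of all merged regions, and 10.3% lay within 1 kb of one.

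The 194 promoter regions belonged to 188 genes, and the longest included those at the genes given here. At TNF, the inflammatory cytokine (chromosome 6, 31575652 to 31577772), 2121 and 1121 bp were covered in replicates 1 and 2 with a fold enrichment of 5.49 and 3.36. At POU3F4, a homeodomain factor of the inner ear and brain, 1269, 555 and 826 bp were covered, and at UGT3A1, a glycosyltransferase, 814, 598 and 802 bp. CST5, a cystatin, had 901, 950 and 572 bp, and VSNL1, a neuronal calcium sensor, 459, 472 and 1109 bp. SPDEF, an epithelial ETS factor, had 295, 631 and 1087 bp. RET and VSNL1 had no peak at these places in the other 15 libraries, whereas POU3F4 had 1, and CST5, UGT3A1 and SPDEF had 2 each.

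Among genes of inflammation and NF-kB signalling, 4 of 46 regions were of the kind described here (8.70%). They were the TNF promoter, the promoter of the cytokine LIF (252 and 742 bp in replicates 2 and 3), the body of CXCL8, the chemokine IL-8 (425 and 247 bp in replicates 1 and 2), and TNFAIP2. Each of the 3 promoters or genes with lengths given lacked a peak in 1 WT library at 3 h and had none in the other 15 libraries. For comparison, 4525 of 122676 regions at protein-coding genes were of this kind (3.69%). Immediate early and stress genes had 2 of 69 (MAFF and ATF3), p53 targets 1 of 94 (FAS), genes of nucleotide excision repair 4 of 138 (USP7, CCNH and MNAT1), and genes of H3K4 methylation and of the histone chaperone FACT 1 of 98 (KMT2C). Shares in these 4 lists were 2.90%, 1.06%, 2.90% and 1.02%, from few regions each.

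Collagen and matrix genes had the highest share of the 14 gene lists, with 71 of 731 regions (9.71%) against 3.69% at all protein-coding genes. They were unevenly spread, since ADAMTS2, which trims procollagen, and COL23A1, a transmembrane collagen, held 17 each, and SMOC1 and SMOC2, matrix proteins that bind calcium, 10 and 5. In ADAMTS2 the longest had 1397 and 1177 bp in replicates 1 and 3. Of 30 listed genes 15 held at least 1, all in the gene body. ADAMTS2 and COL23A1 both lie within 5 Mb of the end of chromosome 5, where the stretch from 175 to 180 Mb held 83 such regions among 783 (10.6%).

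Potassium and calcium channel genes had 104 of 1538 regions (6.76%). CACNA1C, the pore subunit of an L-type calcium channel, held 30 of its 187 regions (16.0%). Its longest ran over chromosome 12, 2263044 to 2269407, with 565, 1394 and 6364 bp covered, so that replicate 3 was far above the other two, and it had a peak in 3 of the other 15 libraries. Another, on chromosome 12, 2610260 to 2612162, was even between libraries, with 1560, 1205 and 832 bp and a fold enrichment of 4.30, 5.32 and 4.68, and had a peak in 1 of the other 15 libraries. KCNMA1, the large-conductance potassium channel, held 14, and KCNQ1, a cardiac potassium channel, 7.

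Genes of neuronal adhesion and synapses held 197 of 4731 regions (4.16%), near the background share of 3.69%. PTPRT, a receptor phosphatase, held 60, the most of any gene, followed outside that list by ASIC2, an acid-sensing channel, with 48, SHANK2, a scaffold of the postsynapse, with 42, and RBFOX1, a splicing factor, with 38. Long genes hold many regions of any kind, and the share of their own regions was 9.02% for PTPRT, 7.83% for ASIC2, 17% for SHANK2 and 4.67% for RBFOX1. Genes at common fragile sites had 44 of 1275 (3.45%), with 11 in WWOX, an oxidoreductase gene.

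Developmental transcription factors had 11 of 227 regions (4.85%) and HOX genes 3 of 60 (5.00%). An intron of ALX4, a homeodomain factor of skull and limb, was covered over 874, 509 and 1235 bp and also had a peak in 3 of the other 15 libraries. PAX6, the eye and brain factor, had one with 287, 515 and 728 bp and none elsewhere. The 3 HOX regions lay at HOXD3, and each had peaks in 2 of 3 WT libraries at 3 h. Mesenchymal and osteoblast genes had 8 of 213 (3.76%), epithelial and keratinocyte genes 4 of 73, and genes of blood, liver and gut 2 of 39.

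The regions had a higher G and C content than the merged regions as a whole. In 300 bases around the summit the median was 51.3% (quartiles 45.3% and 56.3%), against 46.7% for all merged regions and 52.7% for those robust in all 6 groups, and it was 56.0% in the 447 regions found in 3 of 3 WT libraries at 3 h and none of 15 others. Regions robust in ASH1L-/- cells at 3 h only had 42.7%, those in unirradiated WT cells only 43.3%, and those in WT cells at 1 h only or in unirradiated ASH1L-/- cells only 49.3% each. Regions shared by WT cells at 3 h and 1 h alone had 53.3%. Within the 11538 regions the median ran from 53.7% where no other library held a peak to 46.7% where 5 did. CpG remained sparse, with a median of 3 per window and at least 10 in 10.3% of windows, against 3 and 10.5% for all merged regions and 6 and 39.7% for regions robust in all 6 groups.

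Base composition also differed between libraries. Regions found in a single library alone had a median of 50.0%, 48.0% and 47.3% G and C in WT libraries at 3 h, against 42.7%, 42.3% and 42.0% in ASH1L-/- libraries at 3 h and 43%, 40.7% and 44% in unirradiated WT libraries. Over all 18 libraries the lowest was 40.7% and the highest 51.0%, in replicate 1 of WT cells at 1 h. The part of this in the composition of the regions was not tested.

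Sites where UV-C can join pyrimidines were about as frequent as elsewhere. The number of neighbouring pyrimidine pairs on both strands had a median of 171 per 300 bases, against 170 for all merged regions, while TT pairs were fewer, with 37 against 46. TT pairs had a median of 34 in regions shared by WT cells at 3 h and 1 h alone and 36 in those robust in all 6 groups. Short motifs were searched on both strands of the same windows. Of these, the E-box CACGTG was found in 5.21% of the regions and 7.61% of the 447 strictest, against 3.81% of all merged regions. The TATA motif TATAAA was found in 11.9% and 6.04%, against 17.5%, and the GC box GGGCGG in 8.77% and 14.3%, against 8.34%. The AP-1 core TGANTCA stood at 8.59% and 6.04%, against 9.86%. In the same order of motifs, regions shared by WT cells at 3 h and 1 h alone had 5.96%, 9.87%, 13.3% and 8.37%. Those robust in all 6 groups had 4.11%, 11.1%, 25.3% and 7.04%. These matches are descriptions of letters in the window.

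The regions lay towards chromosome ends. Within 5 Mb of an end were 2148 of them (18.6%) and 133 of the 447 strictest (29.8%), against 10.1% of all merged regions and 6.96% of the sequenced genome. The share was 22.6% for regions shared by WT cells at 3 h and 1 h alone and 15.1% for WT cells at 1 h only. It was 5.25% for ASH1L-/- cells at 3 h only, 7.78% at 1 h and 6.68% without UV, and 6.46% for unirradiated WT cells only. The 5 Mb stretch with the most regions was the first of chromosome 5, with 194 of its 1502 merged regions, while 10 were robust there in ASH1L-/- cells at 3 h only. The stretch from 45 to 50 Mb of chromosome 22 followed with 145 of 1166, against 9. Per chromosome the share of merged regions ran from 2.58% on chromosome 4 to 7.67% on chromosome 22. How far position and composition go together was not tested.

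**Figure D4:**
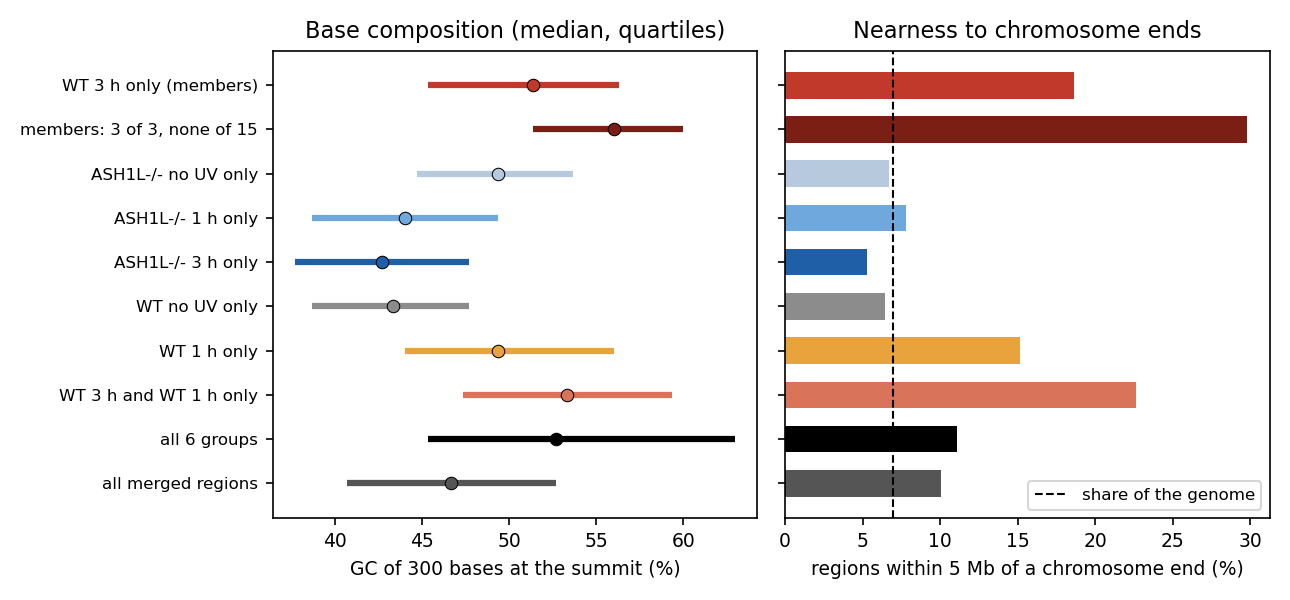
Left, GC of 300 bases at the summit in percent (points, medians; lines, quartiles), and right, the share of regions within 5 Mb of a chromosome end, for sets of H3K4me3 regions, with the 6.96% of the genome that lies there as a dashed line. Regions robust in WT cells at 3 h only stood at 51.3% and 18.6%, against 42.7% and 5.25% for ASH1L-/- cells at 3 h only.

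XPC was measured apart from the choice of the regions, and the share of the regions under its peaks spread widely between replicates. The authors call their XPC data not peaky, used its broad peaks only to check replicates, and drew their XPC results from continuous signal. With that signal they report XPC rising after UV at sites of new ASH1L-dependent H3K4me3, a set that differs from the regions here. Cover by peaks is thus another measure than theirs. In WT cells at 3 h XPC peaks lay over 23.5%, 30.7% and 17.3% of the bases of the regions, against 30.6%, 20.7%, 29.4% and 12.5% in unirradiated WT cells. In ASH1L-/- cells at 3 h the shares were 11.1%, 33.3% and 19.2%, against 25.1%, 16.4% and 15.1% in unirradiated ASH1L-/- cells. At 1 h they were 16.1%, 18.2% and 13.4% in ASH1L-/- cells and 23.5%, 14.2% and 21.0% in WT cells. The range of WT cells at 3 h overlapped that of every other group. All merged regions were covered to a similar level, with 20.9% ± 5.12 in WT cells at 3 h (SD, n = 3) and 23.7% ± 8.56 in unirradiated WT cells (SD, n = 4).

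Set against all merged regions of the same library, the regions were covered 1.07, 1.21 and 1.13 times as much in WT cells at 3 h and 1.31, 1.01 and 1.28 times at 1 h, against 0.914, 0.995, 1.09 and 0.929 times in unirradiated WT cells. In ASH1L-/- cells the ratios were 0.882, 1.06 and 1.07 at 3 h and 0.899, 1.13 and 0.963 at 1 h, against 0.797, 0.903 and 0.861 without UV. In ASH1L-/- cells 2 of 3 libraries at 3 h lay above the unirradiated ones, and in WT cells the ranges at 3 h and without UV overlapped. For the 447 strictest regions the ratios were 1.42, 1.82 and 1.54 in WT cells at 3 h and 1.75, 1.10 and 2.11 at 1 h, against 1.04, 1.04, 1.52 and 0.820 in unirradiated WT cells. In ASH1L-/- cells they were 1.09, 1.61 and 1.41 at 3 h and 1.03, 1.69 and 1.05 at 1 h, against 0.892, 1.01 and 0.929 without UV, and the strictest regions had a higher ratio than the whole set in 18 of 19 libraries, all but replicate 4 of unirradiated WT cells. These ratios are given without a test. The XPC lists held exactly 500000 peaks in 17 of 19 libraries, and the weakest peak of a list had a −log10 p between 1.00 and 1.47. The lists thus ended at different thresholds, so neither the number of peaks nor the share under them is on quite the same footing in each library.

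**Figure D5:**
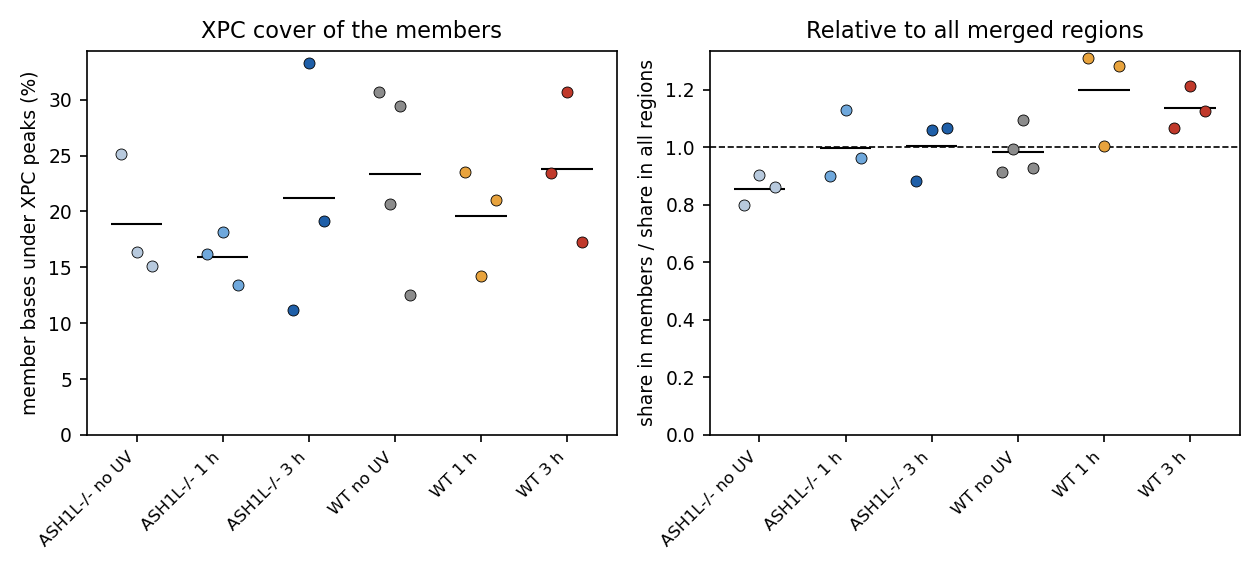
Left, the percent of the bases of the 11538 regions under XPC peaks, and right, that percent divided by the percent for all merged regions, per library (points; lines, group means; dashed line, equal cover). The ratio lay between 1.07 and 1.21 in WT cells at 3 h and between 0.914 and 1.09 in unirradiated WT cells.

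Region by region, no XPC difference passed the test in the regions robust in WT cells at 3 h only. The percent of each region under XPC peaks was fitted with limma over all 218435 merged regions covered in at least 3 of 19 libraries, of which 9637 were robust in WT cells at 3 h only, and p-values were adjusted over all regions of a contrast with a threshold of 0.05. Between WT cells at 3 h and unirradiated WT cells 0 of the 9637 passed, against 33 of all regions (0.0151%). In the other 4 contrasts 0 of the 9637 and 0% of all regions passed. These were WT cells at 3 h and at 1 h, ASH1L-/- cells at 3 h and without UV, ASH1L-/- and WT cells at 3 h, and the difference of the 2 changes from no UV to 3 h.

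Without adjustment, 521 of the 9637 (5.41%) were higher and 367 (3.81%) lower at a p under 0.05 in WT cells at 3 h than without UV, against a background of 3.99% and 3.88% of all regions. Without replicate 4 of unirradiated WT cells the counts were 384 higher and 595 lower, without replicate 2 they were 407 and 451, and with the replicate number as a block 400 and 612. Relative to WT cells at 1 h the counts were 507 (5.26%) higher and 260 (2.70%) lower, against 4.21% and 2.19%, and without replicate 2 of WT cells at 1 h they were 311 and 394. ASH1L-/- cells at 3 h relative to no UV gave 377 (3.91%) and 312 (3.24%), against 3.19% and 4.2%. The counts were 730 and 199 without replicate 1 of ASH1L-/- cells at 3 h, 211 and 269 without replicate 2, and 246 and 385 or 227 and 395 without replicate 2 or 3 of unirradiated ASH1L-/- cells. ASH1L-/- relative to WT cells at 3 h gave 230 (2.39%) higher and 381 (3.95%) lower, against 2.49% and 2.95%, but 454 higher and 227 lower without replicate 1 of ASH1L-/- cells at 3 h and 439 and 225 without the 2 shorter XPC lists. For the difference of the changes there were 202 (2.10%) and 224 (2.32%), against 2.11% and 2.5%, and 327 and 178 without replicate 4 of unirradiated WT cells. In each of the 5 contrasts, leaving out a single library could thus turn the balance of higher and lower. Counts over all regions tested moved likewise. For WT cells at 3 h relative to no UV they were 6772 and 12966 without replicate 4, and 7007 and 13592 with the block. Without replicate 1 of ASH1L-/- cells at 3 h they were 11863 and 5934 relative to no UV, and 9719 and 4050 relative to WT. Without replicate 2 of WT cells at 1 h they were 5657 and 5505, where the balance over all regions held. The median difference between WT cells at 3 h and without UV was 0 percentage points for the regions and -2.42 for all regions tested. In that contrast 7, 3 and 11 of the regions passed, all higher in WT cells at 3 h, without replicate 1, 2 or 3 of WT cells at 3 h, and 2 without replicate 2 of ASH1L-/- cells at 3 h. These were 7 of 9512, 3 of 9415 and 11 of 9494 tested. Of all regions 153 of 214960, 74 of 212776 and 205 of 214670 passed in the same runs, also all higher. Without replicate 2 of ASH1L-/- cells at 3 h, 37 of all regions were higher and 8 lower.

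Among the regions the smallest p in that contrast lay in the body of EBF3, a factor of neuronal development (chromosome 10, 129915922 to 129916319). It was under XPC peaks over 100%, 100% and 100% of its length in WT cells at 3 h, against 0%, 33.4%, 0% and 0% in unirradiated WT cells. XPC peaks were listed over 0% of it in all 6 irradiated ASH1L-/- libraries. The difference was 91.6 ± 17.3 percentage points (SE, adjusted p = 0.0635, limma) and did not pass. The next, between genes on chromosome 18, 78096956 to 78097389, was covered over its whole length in the 3 WT libraries at 3 h and not at all in the 4 unirradiated WT libraries. It was also covered over 0%, 58.5% and 15.4% in ASH1L-/- cells at 3 h and over 38.0% in replicate 2 of WT cells at 1 h. The WT difference was 100 ± 19.5 percentage points (adjusted p = 0.0792, limma).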

How the data were processed

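H3K4me3 and XPC were measured by chromatin immunoprecipitation sequencing, and 18 H3K4me3 and 19 XPC peak lists were used. The input and XPC-deficient samples entered only as the authors' controls. Per the labels and the study's methods, the authors trimmed reads (Trim Galore 0.6.5), aligned them to hg38 lacking chromosome Y (BWA 0.7.17-r1188), filtered them for mapping quality, duplicates and blacklisted regions (bedtools 2.29.2, Picard, SAMtools 1.7), and called narrow H3K4me3 and broad XPC peaks for each library (MACS2 2.2.7.1), with a p threshold of 0.01 stated in the methods. The deposited XPC lists go below it, to a −log10 p between 1.00 and 1.47, and XPC cover rests mostly on such weaker peaks. Controls could be pooled, ChIP libraries were not. The deposited columns are positions, fold enrichment (the ratio of a library to its control), −log10 p and −log10 q. A call therefore depends on depth, and no peak means only that the threshold was missed. Total read counts were not used here.

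Whole summit reads and local background were computed from the deposited fold enrichment and −log10 p, and 100% of peaks with a −log10 p under 30 matched within 0.001. Regions were annotated with GENCODE 44 (19970 protein-coding start sites) and the hg38 sequence, around the strongest summit of any library, or of WT cells at 3 h for the printed sequences. The repeat-masked share that was planned could not be had from an upper-case sequence.

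XPC cover was fitted with limma 3.58.1 in R 4.3.3 (group means in 1 fit, trended and robust variances, Benjamini-Hochberg). Its p-values measure the spread between libraries that the labels call replicates. The code was first run on simulated normal values with less spread than the real ones, which says nothing of power on these data. Values from 2 XPC lists with no peak on chromosome X entered as 0 there. Groups came from the labels. The regions, the 14 gene lists and the tests were chosen with earlier results of these data known. Regions were named as the 10 longest and 10 strongest found in 3 of 3 WT libraries at 3 h and none of 15 others, the 10 longest at promoters, and up to 3 per gene list, and for length not all are given. The RET window and the regions of smallest XPC p were chosen after values were seen. Some named regions and a sequence are not reported here.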

Additional observations from a re-analysis of the deposited data

Results flagged for a closer look

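Single XPC libraries stood apart at 2 of the regions with the smallest p between WT cells at 3 h and without UV. In the region in EBF3 1 of the 4 unirradiated WT libraries had 33.4% of the region under XPC peaks and the other 3 had 0%. Between genes on chromosome 7, 9889991 to 9891186, 1 of the 4 had 3.43% and the other 3 had 0%, against 63.5%, 100% and 95.7% in WT cells at 3 h. With 3 of 4 values at 0 any value above 0 is picked out, so the rate of about 1 in 20 groups that chance gives elsewhere does not apply.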

How the results depend on the processing

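The number of regions robust in WT cells at 3 h only was 2955 with peaks of at least 5-fold enrichment, 4477 with an equal number of peaks per library, 2398 with a peak in all 3 libraries and 2976 with no peak in any other library. It stayed within 1.5 times of 11538 under 4 other rules. Leaving out 1 library gave 4617 to 15000, and it was lower by over 1.5 times without WT 3 h replicate 1 (4617), 2 (7363) or 3 (4897), where both remaining libraries must hold a peak. For the 447 regions of the strictest rule the medians were 368 bp covered, a fold enrichment of 3.21, 56.0% G and C and 5 CpG. Promoters made up 1.01% within 1 kb, and with all annotated genes 8.70%, gene bodies 50.4% and intergenic DNA 40.9%.

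For XPC the count over all regions in the contrast of WT cells at 3 h with no UV (33) was 0 with log2 fold enrichment plus 1, 0 with XPC peaks at a −log10 p of at least 2 (where only 10906 regions, 245 of them robust in WT cells at 3 h only, could be tested), 0 without the 2 shorter lists, 1 with at least 6 libraries per region and 50 with at least 1. With the replicate number as a block it was 0. Same-numbered libraries had correlations of -0.08 to 0.21 over 45 pairs, with a median of 0.026. Differently numbered libraries had -0.13 to 0.10 over 105 pairs, with a median of -0.010. Such low correlations of sparse cover cannot decide whether the numbers pair the libraries. Against WT cells at 1 h, scaling to equal cover gave 50 and regions covered in at least 1 library 18. For ASH1L-/- cells at 3 h the counts were 35 (against no UV) and 30 (against WT) with at least 1 library, and 88 and 85 without the 2 shorter lists. Leaving out 1 library gave 0 to 205, 0 to 152, 0 to 213 and 0 to 174 calls in these 4 contrasts, and 0 to 11, 0 to 7, 0 to 6 and 0 to 6 among the regions described here. Among these, scaling gave 1 and 2 calls in the 2 WT contrasts, at least 1 library gave 1 against no UV and 1 between genotypes, and leaving out the 2 shorter lists gave 3 and 3 in the ASH1L-/- contrasts. Without chromosome X, added after the data were seen, no count moved by 1.5 times. The difference of the changes gave 0 calls under every alternative run.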
